A study of Mus musculus with 8 samples.

Results

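The motor proteins that walk along microtubules were examined at the RNA level in mouse microglia with and without LPS. The set held the protein-coding genes of the GENCODE vM21 annotation whose symbol begins with Kif or Kifc and a digit, Dync1, Dync2, Dynll, Dynlrb, Dynlt or Dctn, together with the kinesin light chains Klc1 to Klc4. This gave 69 of the 52636 genes in the count table: 14 mitotic kinesins, 20 transport kinesins and kinesin light chains, 12 kinesins that regulate microtubule ends or serve cilia, and 22 dynein and dynactin genes. The remaining gene, Kif1bp, fits the symbol rule but encodes a kinesin-binding protein and no motor, so it was kept apart from these groups.

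Bulk RNA sequencing covered 8 libraries of primary microglia from wild-type C57BL/6 mice (C57BL/6N pups in the study's methods), grown in DMEM with serum and the microglial growth factor CSF-1. The cells had been shaken off mixed glial cultures of newborn brains, so they are a culture model that can carry other glia. Before RNA isolation, 4 cultures received LPS (lipopolysaccharide, a component of the bacterial outer membrane) at 5 µg/ml for 24 h and 4 received vehicle for the same time. The labels number the biological replicates 1 to 4 in each group.

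Kinesins use ATP to move along microtubules, most of them toward the plus end. Transport kinesins carry vesicles, endosomes and mitochondria, whereas mitotic kinesins build and divide the spindle and are made mainly in cycling cells. Cytoplasmic dynein-1 carries cargo toward the minus end, which in many cells lies at the centrosome, and it needs the dynactin complex and an activating adaptor to move far; dynein-2 works inside cilia.

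Library totals ran from 20071921 to 30604447 counts. Levels are given as CPM, the usual unit of counts over the library size, here after TMM scaling (trimmed mean of M values, which sets the bulk of genes equal between libraries), and differences as log2 fold changes of LPS over vehicle ± the standard error of the edgeR fit, with p-values adjusted over all 13847 genes tested and a threshold of 0.05. The TMM factors were 1.21 to 1.32 in vehicle and 0.70 to 0.83 in LPS libraries. Scaling to library totals alone therefore moved the median of all genes by -0.68, from -0.11 to -0.79, and the split of calls from 4191 higher and 4686 lower to 1988 higher and 8457 lower. Small changes below are thus relative to the bulk of genes, and every motor gene whose sign turned with the scaling is named as such. Of 9 microglial markers, 6 were lower after LPS, 1 was higher and 2 were not called, and they summed to 7369 to 9062 CPM in vehicle and 2294 to 2731 CPM after LPS. Csf1r fell from 2729 to 3580 CPM to 272 to 728 CPM, Itgam rose from 201 to 329 CPM to 870.0 to 1061 CPM, and Aif1 was at 95.5 to 187 CPM in vehicle and 96.2 to 151 CPM after LPS. In bulk RNA, fewer cells of a type and less RNA per cell cannot be told apart.

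Of the 69 genes, 56 passed the filter on low counts and 13 did not. Among the 56, 15 were higher after LPS, 27 were lower and 14 were not called. Of all genes tested, 64.1% were called, 30.3% higher and 33.8% lower, so a call alone says little. Every count of calls below is to be read against these background shares. The median log2 fold change of the 56 was -0.65, beside -0.11 for all genes tested. The CPM of the groups did not overlap for 40 of the 56 motor genes, against 60.2% of all genes. With the replicate number as a block, 42 motor genes were called, beside 65.3% of all genes tested. Split by role, as in the plot of fold changes by role, every mitotic kinesin tested fell, the transport kinesins went both ways, and 9 of the 16 tested dynein and dynactin genes rose.

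**Figure D1:**
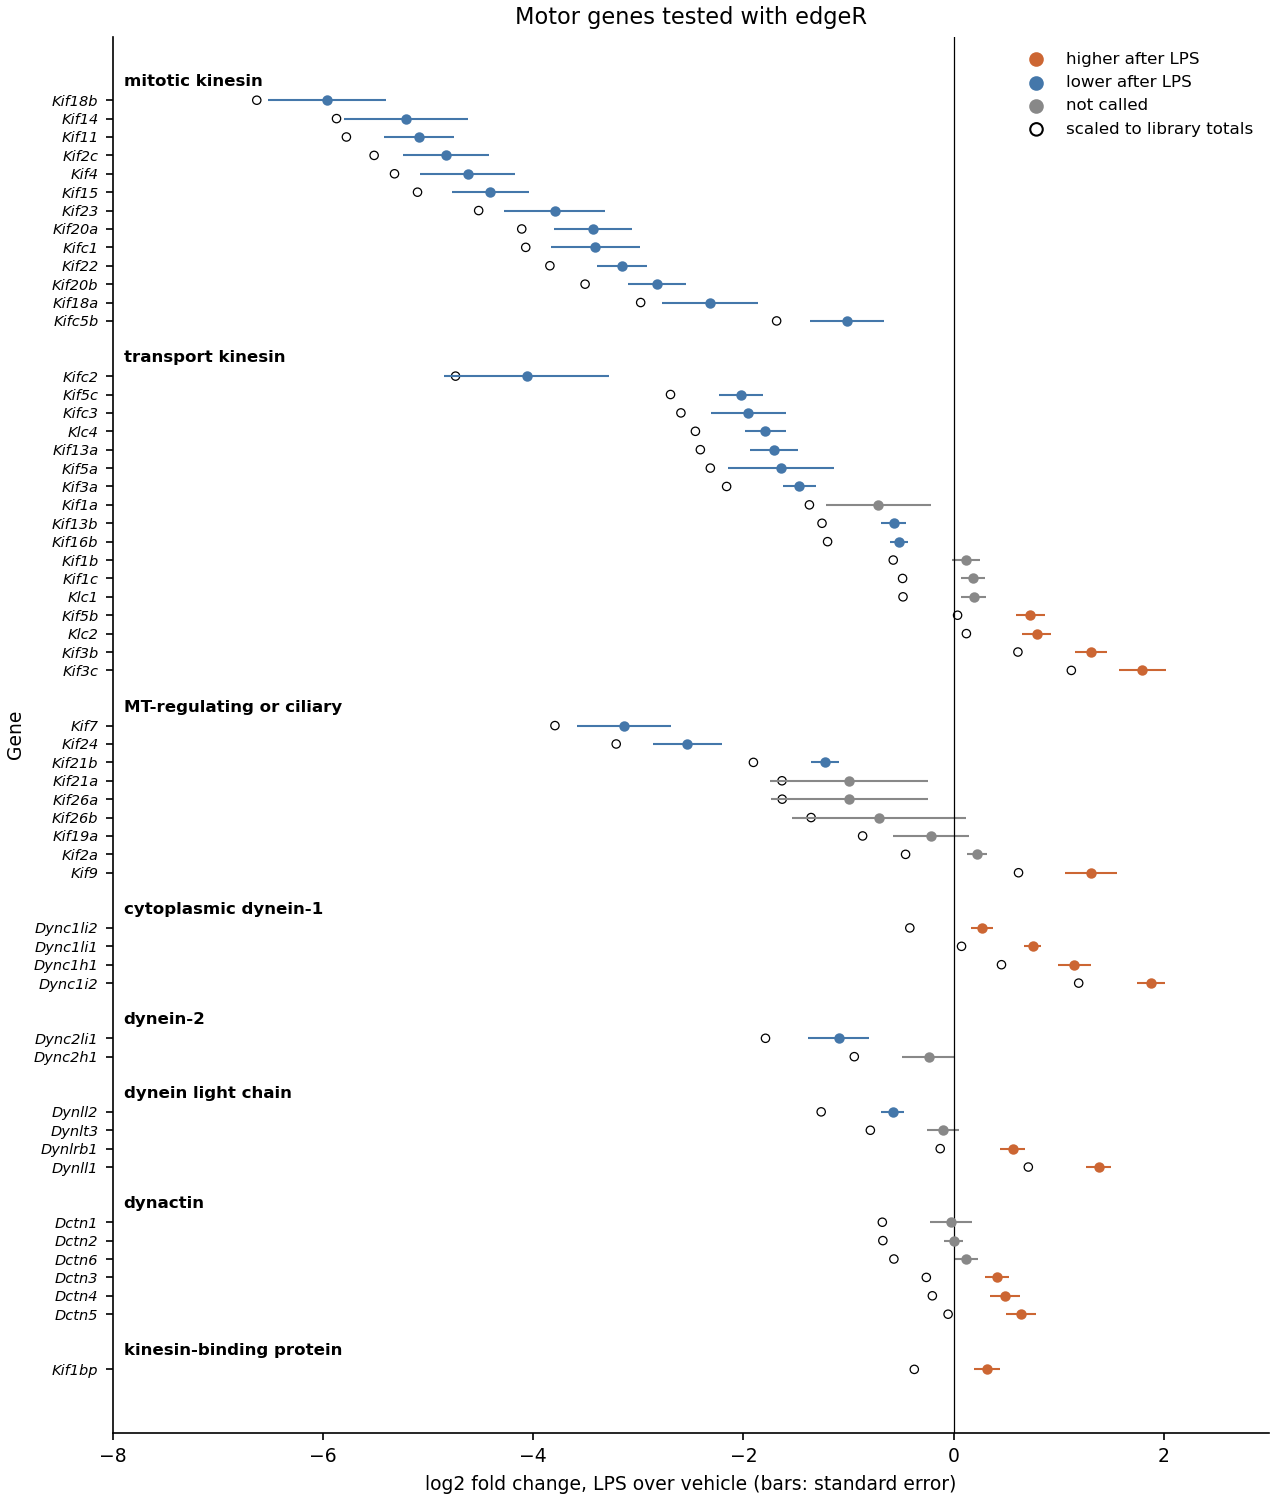
Log2 fold change of LPS over vehicle (x axis) for the 56 motor genes tested (y axis), grouped by role. Filled points are the edgeR estimates with TMM scaling, coloured by call, with bars of 1 standard error, and open circles are the same genes scaled to library totals. The mitotic kinesins lie between -5.96 and -1.02, all to the left of 0, while most dynein and dynactin genes lie to the right of 0 with TMM scaling and closer to 0 or left of it with library totals.

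Promoters of some mitotic kinesins are shown first, because these genes moved together and most of them share letters at their start sites that most other motor genes lack. Each line runs from 100 bases before to 30 after the RefSeq transcription start on GRCm38.p6, 5′ to 3′ on the strand of the gene. Capitals mark TTTGAA, the core of the CHR element known from cell cycle genes, and CCAAT, in either orientation, so that TTCAAA and ATTGG are their reverse complements. Kif11, Kif15 and Kif22 carry TTCAAA just before the start, Kif18b, Kif23 and Kif4 carry TTTGAA just after it, and Kif18a carries neither motif. Of the stretches not shown, those of Kif20b and Kifc1 carry TTTGAA, those of Kif14 and Kifc5b carry only CCAAT, and that of Kif2c carries neither.
Kif11 (chr19:37376282-37376411, plus strand): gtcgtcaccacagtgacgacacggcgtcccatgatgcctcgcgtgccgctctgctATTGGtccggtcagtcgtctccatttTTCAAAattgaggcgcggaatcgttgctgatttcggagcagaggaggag
Kif15 (chr9:122950981-122951110, plus strand): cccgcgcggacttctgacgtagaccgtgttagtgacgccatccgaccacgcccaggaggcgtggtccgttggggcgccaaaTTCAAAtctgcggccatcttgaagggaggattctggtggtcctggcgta
Kif22 (chr7:127042391-127042520, minus strand): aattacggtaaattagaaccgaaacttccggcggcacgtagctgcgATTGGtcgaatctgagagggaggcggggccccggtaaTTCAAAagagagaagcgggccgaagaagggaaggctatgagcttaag
Kif18b (chr11:102925095-102925224, minus strand): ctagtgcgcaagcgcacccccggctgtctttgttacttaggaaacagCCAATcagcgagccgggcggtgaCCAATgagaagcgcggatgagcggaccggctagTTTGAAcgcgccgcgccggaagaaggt
Kif23 (chr9:61946770-61946899, minus strand): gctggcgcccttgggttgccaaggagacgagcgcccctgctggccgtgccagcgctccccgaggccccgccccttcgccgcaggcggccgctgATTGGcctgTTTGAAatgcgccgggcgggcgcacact
Kif4 (chrX:100625965-100626094, plus strand): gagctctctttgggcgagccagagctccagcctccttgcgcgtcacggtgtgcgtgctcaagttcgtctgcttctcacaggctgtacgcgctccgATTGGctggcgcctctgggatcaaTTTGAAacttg
Kif18a (chr2:109280638-109280767, plus strand): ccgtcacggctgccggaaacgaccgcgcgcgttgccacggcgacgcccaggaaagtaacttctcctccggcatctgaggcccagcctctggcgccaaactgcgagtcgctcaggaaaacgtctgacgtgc

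RefSeq windows of 250 bases before to 50 after each start were found for 51 of the 69 genes. In them, TTTGAA was present on either strand in 11 of 13 mitotic kinesins (84.6%). These 13 include Kif2b, which was not tested, and leave out Kif20a, which had no window. Of the 12 with a window that were called lower after LPS, 11 held it (91.7%). TTTGAA was present in 4 of the 38 other motor genes (10.5%) and in 20.2% of all 27025 genes with such a window. A TTTGAA that began within 30 bases of the start, on either side, was found in 9 of these 13 mitotic kinesins. It was found in 1 of the 38 other motor genes and in 3.66% of all genes. In Kifc5b, which is among the 9, the motif runs past that limit. CCAAT was present in 9 of the 13 mitotic kinesins (69.2%), in 42.1% of the other motor genes and in 41.1% of all genes. TTTAAA, a hexamer of A and T only, was present in 15.4%, 7.9% and 14.9% of them. Unlike TTTGAA it reads the same on either strand and holds no G or C, so it is not a matched control. These are letter matches, not measured binding, and the RefSeq starts of Kif4, Kif14 and Kif2c lie 328, 1505 and 3867 bases inside the annotated gene.

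All 13 mitotic kinesins tested were lower after LPS, with no overlap between the groups for any of them and a median log2 fold change of -3.80. Kif2b, the only member of this group that was not tested, had no count in any library. The fall was present in each numbered pair of libraries, with medians over the 13 genes on the log2(CPM + 0.5) scale of -2.59, -3.32, -3.52 and -3.71 for pairs 1 to 4. Summed over the group per kilobase of exon, mitotic kinesin RNA was at 12.4 to 29.6 CPM in vehicle and 1.31 to 1.96 CPM after LPS.

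The highest CPM of the group was that of Kif11 (ENSMUSG00000012443, chr19:37376403-37421859), the kinesin-5 that slides spindle microtubules apart. Its CPM was 14.3, 26.3, 30.5 and 32.6 in vehicle libraries 1 to 4 and 0.897, 0.762, 0.932 and 0.433 in LPS libraries 1 to 4. The groups were far apart, and the fitted fall was 34.0-fold (-5.09 ± 0.33, adjusted p = 1.60e-06). Kif18b (chr11:102905529-102925124), a kinesin-8 of astral microtubule ends, had the largest change of the group. It had 89, 204, 275 and 251 counts in vehicle and 0, 3, 2 and 3 counts after LPS, a log2 fold change of -5.96 ± 0.56 (adjusted p = 1.38e-05) whose size rests on few counts. Kif14 (chr1:136466343-136531511), a kinesin-3 of the midbody, likewise had 86, 182, 229 and 231 counts in vehicle and 3, 6, 0 and 3 after LPS (-5.21 ± 0.59, adjusted p = 4.60e-05).

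The kinesin-6 motors that close the cell during cytokinesis fell less far than Kif11, Kif18b and Kif14. A smaller fall was not particular to them, since Kif18a (-2.32) and Kifc5b (-1.02), of other families, fell less still. Kif23 (chr9:61915905-61946774), the motor of the centralspindlin complex, had CPM of 9.02, 19.0, 20.9 and 24.4 in vehicle and 0.538, 0.871, 2.70 and 1.03 after LPS (-3.80 ± 0.48). Kif20b (chr19:34922361-34975745), of late cytokinesis, had 9.82, 19.8, 20.7 and 24.5 in vehicle and 2.21, 2.72, 2.70 and 2.92 after LPS (-2.82 ± 0.28). The LPS libraries of Kif20b lay close together, while Kif23 was highest in the LPS library of replicate 3. The third, Kif20a (-3.43 ± 0.37), brings the chromosomal passenger complex to the central spindle.

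The other mitotic kinesins changed by -4.83 for Kif2c, a depolymerase of centromeric microtubule ends, -4.62 for the chromokinesin Kif4, -4.41 for Kif15, which holds spindle poles apart, -3.16 for the chromokinesin Kif22 and -2.32 for Kif18a, which dampens chromosome oscillations. The kinesin-14 genes Kifc1 (-3.41), which focuses spindle poles, and Kifc5b (-1.02, adjusted p = 0.029 in edgeR) are close copies. Of the 50-base windows of their exons, 39.7% and 37.4% occur in another gene, so reads could be lost or split between them. Kifc5b had only 4 to 6 counts per LPS library and lost its call with the replicate block (adjusted p = 0.074 in edgeR).

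**Figure D2:**
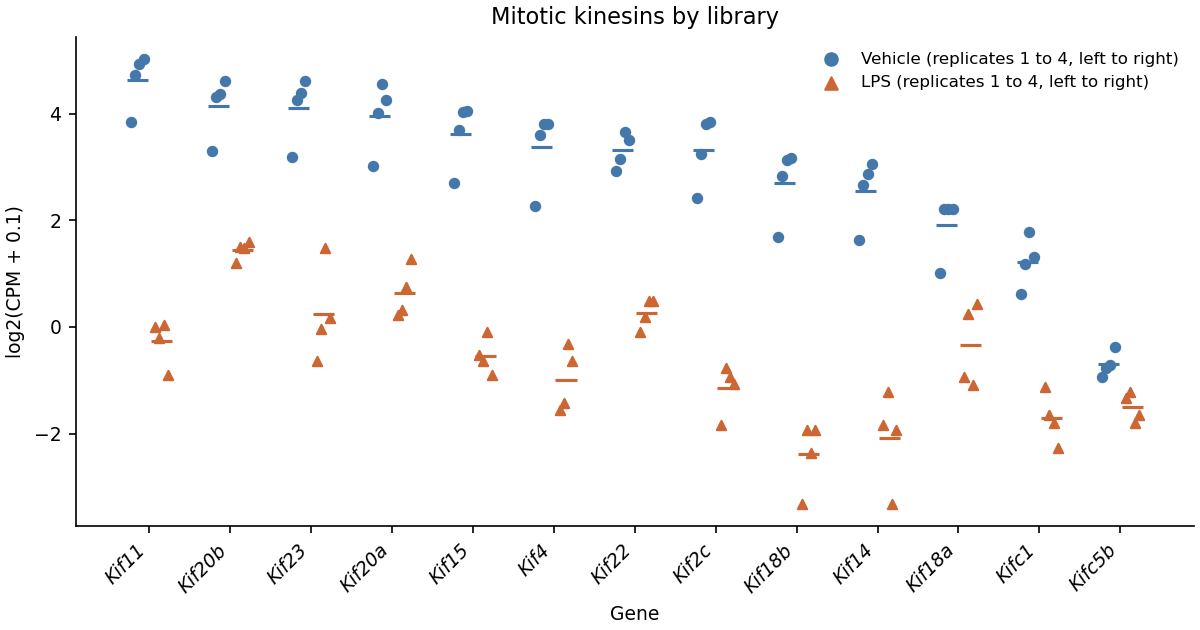
Level of the 13 tested mitotic kinesins (x axis) in each library, as log2(CPM + 0.1) (y axis). Circles are vehicle and triangles LPS libraries, replicates 1 to 4 from left to right, and bars are group means. No gene overlaps between the groups, and vehicle replicate 1 is the lowest vehicle library for all 13.

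Vehicle replicate 1 had the lowest level of every mitotic kinesin among the vehicle libraries. Its summed level of 6 cycling markers was 155 CPM, against 286 to 352 CPM in the other vehicle libraries and 12.7 to 15.5 CPM after LPS. All 6 cycling markers were lower after LPS, with a median log2 fold change of -4.86 (Mki67, -4.36). Of 15 spindle partners, the genes that work with these motors in mitosis, 13 were lower and 0 higher, with a median of -2.95. Plk1 (-6.58), the kinase that drives mitotic entry and spindle assembly, and Anln (-6.09), a scaffold of the cleavage furrow, fell furthest. Incenp (0.30, adjusted p = 0.12 in edgeR) and Tpx2 (-0.54, adjusted p = 0.22 in edgeR) were not called, though Tpx2 was called lower with the replicate block (adjusted p = 0.0071 in edgeR), and Incenp had 45.9 to 71.1 CPM in vehicle and 59.7 to 83.6 CPM after LPS. Incenp was called higher when replicate 3 of either group was left out and turned to -0.37 with library totals. The part that the number of cycling cells has in the fall of the mitotic kinesins was not tested.

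The transport kinesins did not move together. Of 17 tested, 4 were higher (against 30.3% of all genes tested), 9 were lower (against 33.8%) and 4 were not called. The median log2 fold change of the transport kinesins was -0.57. Their summed level per kilobase was 163 to 188 CPM in vehicle and 165 to 209 CPM after LPS, so these ranges overlapped.

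Members of kinesin-2 moved in opposite directions. Kinesin-2 is a motor built from 2 different motor subunits and the accessory subunit KAP3, which carries endosomes and builds cilia. Kif3a (chr11:53567379-53601967), the subunit common to the KIF3A/B and KIF3A/C motors, had CPM of 99.98, 89.99, 110 and 102 in vehicle and 27.8, 34.3, 47.4 and 35.7 after LPS (-1.47 ± 0.16, adjusted p = 3.14e-05). Kif3b (chr2:153291413-153333390) had 102, 89.6, 91.4 and 93.9 CPM in vehicle and 179, 233, 300.2 and 221 CPM after LPS (1.31 ± 0.15, adjusted p = 5.74e-05). Kif3c (chr12:3365132-3406494) had 27.7, 21.2, 19.0 and 25.6 CPM in vehicle and 53.0, 107, 69.4 and 95.6 CPM after LPS (1.80 ± 0.22, adjusted p = 8.35e-05). None of the 3 genes overlapped between the groups, and Kif3a went the opposite way from its partners. Kifap3, which encodes KAP3, was lower (-0.79 ± 0.11).

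Ratios of CPM per kilobase within a library do not depend on scaling. The ratio of Kif3b to Kif3a was 0.652, 0.634, 0.530 and 0.587 in vehicle and 4.10, 4.31, 4.03 and 3.94 after LPS, or 0.601 ± 0.055 against 4.10 ± 0.16 (SD, n = 4 each). Per kilobase, Kif3a was thus the higher of the pair in all vehicle libraries and Kif3b in all LPS libraries. In CPM, Kif3b was slightly above Kif3a in vehicle replicate 1 (102.5 against 99.98 CPM). The ratio of Kif3c to Kif3a rose from 0.084 to 0.134 in vehicle to 0.710 to 1.51 after LPS. These ratios were chosen after the values were seen and carry no test. Of the 50-base windows of Kif3c, 39.6% occur in another gene, mainly 1110002L01Rik on the opposite strand, and the sources used here do not say whether counting used the strand, so the level of Kif3c is less certain than that of Kif3b.

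**Figure D3:**
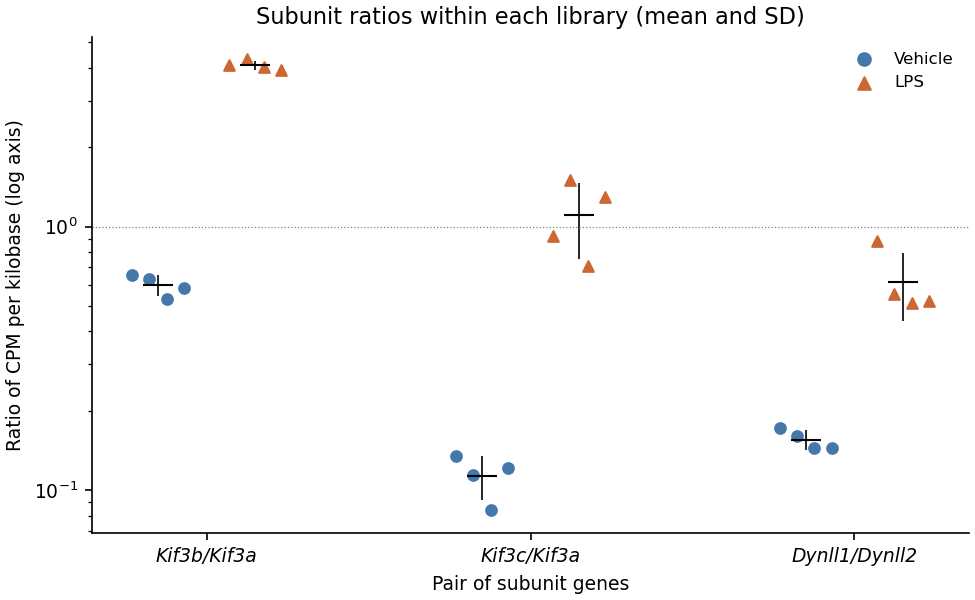
Ratio of CPM per kilobase of exon (y axis, log scale) for 3 pairs of subunit genes (x axis) in each library. Circles are vehicle and triangles LPS libraries, with the mean and SD of 4 libraries in black. The ratio of Kif3b to Kif3a lies at 0.530 to 0.652 in vehicle and 3.94 to 4.31 after LPS, and no pair overlaps between the groups.

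The subunit genes of kinesin-1, the main carrier of lysosomes, mitochondria and RNA granules, also shifted against each other at the RNA level. The makeup of the motor itself was not measured. The ubiquitous heavy chain Kif5b (chr18:6201002-6242174) had CPM of 207, 213, 193 and 211 in vehicle and 336, 302, 431 and 297 after LPS (0.73 ± 0.14, adjusted p = 0.0011 in edgeR). With library totals its difference was 0.04 and not called. Kif5c (chr2:49619298-49774778), a heavy chain best known from neurons, had 11.99, 14.8, 14.1 and 15.7 CPM in vehicle and 5.08, 3.16, 2.80 and 2.92 CPM after LPS (-2.03 ± 0.21, adjusted p = 2.70e-05). The per-kilobase ratio of Kif5b to Kif5c was 11.99 to 15.5 in vehicle and 59.2 to 138 after LPS, so Kif5b was the main heavy chain in both groups.

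Among the light chains, which link kinesin-1 to cargo, Klc4 fell from 30.5 to 52.0 CPM to 9.81 to 13.9 CPM (-1.79 ± 0.19, adjusted p = 3.22e-05). Klc2 rose from 12.9 to 17.4 CPM to 20.8 to 27.7 CPM (0.79 ± 0.14), though with library totals its difference was 0.12 and not called. Klc1 was at 48.9 to 57.5 CPM in vehicle and 51.3 to 69.1 CPM after LPS and was not called (0.19, adjusted p = 0.17 in edgeR, and -0.48 with library totals), but it was called higher with both libraries of replicate 3 left out (0.35, adjusted p = 0.031 in edgeR). Per kilobase, Klc4 was at 16.95 ± 4.1 CPM and Klc1 at 13.02 ± 0.93 CPM in vehicle, against 4.90 ± 0.80 and 14.9 ± 2.0 CPM after LPS (SD, n = 4 each). Within libraries, the ratio of Klc4 to Klc1 per kilobase was 1.07 to 1.64 in vehicle and 0.311 to 0.363 after LPS. Per kilobase, Klc4 was thus the higher in all 4 vehicle libraries and Klc1 in all 4 LPS libraries. In CPM, Klc1 was above Klc4 in every library, so the order in vehicle rests on the exon lengths used.

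The kinesin-3 family carries endosomes and vesicles. Its member with the highest CPM, Kif1c (chr11:70700548-70731964), which moves vesicles between the Golgi and the cell edge, had CPM of 242, 198, 213 and 196 in vehicle and 225, 253, 223 and 266 after LPS. These values overlapped and were not called (0.19 ± 0.11, adjusted p = 0.18 in edgeR), nor were those of Kif1b (0.12), a carrier of mitochondria and lysosomes. Both turned to lower with library totals (-0.49 and -0.57), and Kif1b was at -0.05 with upper quartile scaling. The relatives that follow were lower without overlap: Kif13a (-1.71 ± 0.23), of recycling endosomes, Kif13b (-0.57 ± 0.12) and Kif16b (-0.52 ± 0.09), of early endosomes.

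Minus-end kinesins of the kinesin-14 family that serve membranes were lower as well. Kifc3, of the Golgi and cell junctions, had CPM of 23.2, 14.9, 17.2 and 16.8 in vehicle and 6.28, 5.28, 1.54 and 5.62 after LPS (-1.95 ± 0.36), with the LPS library of replicate 3 below the others. Kifc2, a vesicle motor, had 64, 58, 19 and 48 counts in vehicle and 0, 5, 2 and 0 counts after LPS (-4.06 ± 0.78, adjusted p = 0.0013 in edgeR), so its fold change rests on few counts. Kif17, Kif28 and Klc3 were not tested, with at most 5 counts in any library.

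**Figure D4:**
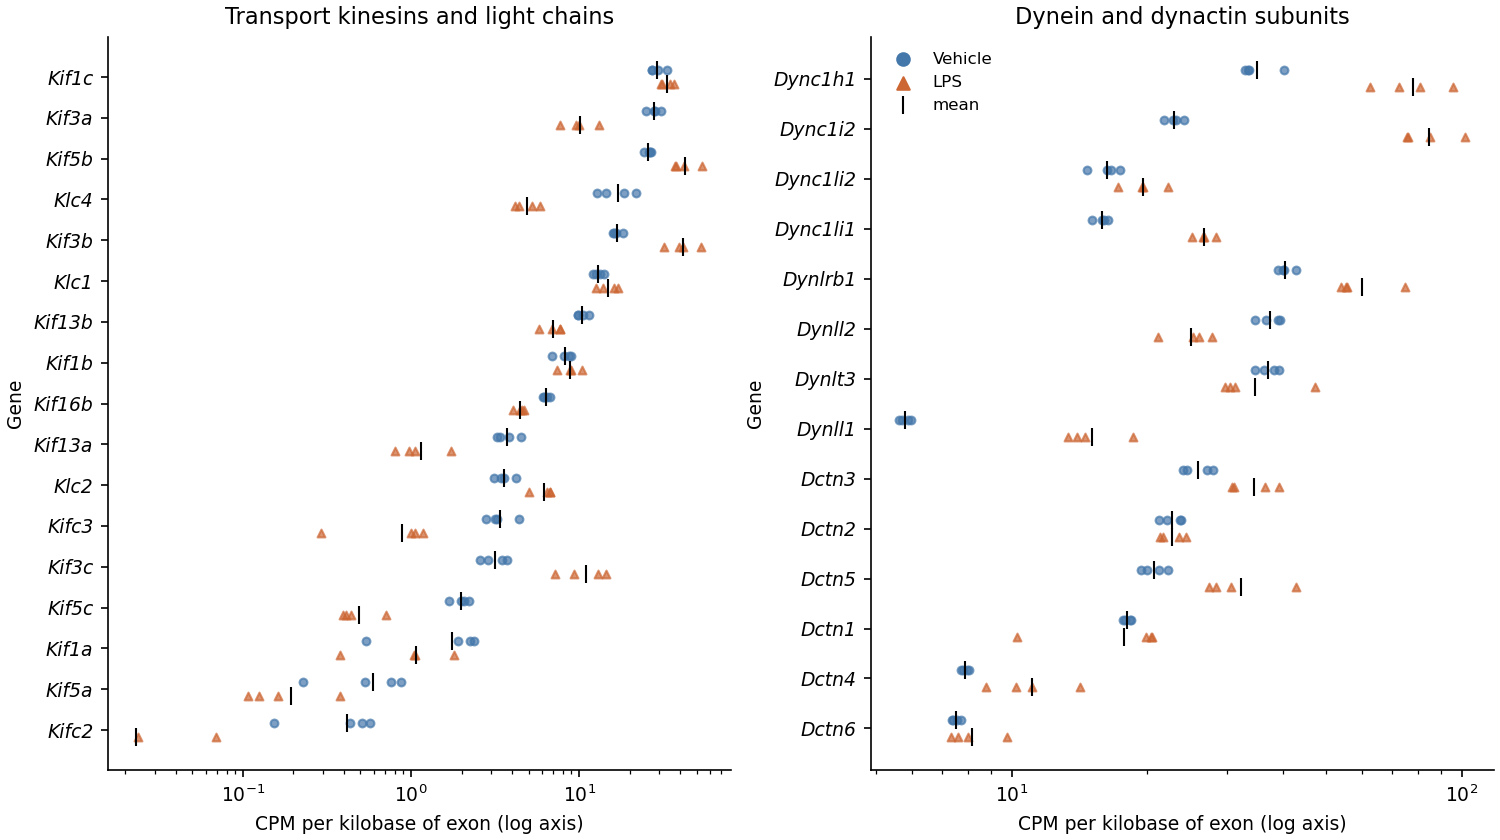
Level per kilobase of exon (x axis, log scale, CPM per kilobase) of the tested transport kinesins and light chains (left) and of the tested dynein-1, light chain and dynactin genes (right), with genes on the y axis. Circles are vehicle and triangles LPS libraries, vertical ticks are group means, and the 2 LPS libraries with no Kifc2 count are not drawn. Kif3a lies left and Kif3b right of its vehicle values after LPS, and Dync1i2 moves from 23.0 to 84.6 CPM per kilobase.

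The kinesins that regulate microtubule ends or serve cilia numbered 12. Of the 9 tested, 1 was higher (against 30.3% of all genes tested), 3 were lower (against 33.8%) and 5 were not called. Their median log2 fold change was -0.99, and -0.58 without LPS replicate 3. Kif21b (chr1:136131389-136177998), a kinesin-4 that restrains microtubule growth, had the highest CPM, at 101, 116, 81.3 and 119 CPM in vehicle and 50.1, 41.2, 44.8 and 42.4 CPM after LPS (-1.22 ± 0.13, adjusted p = 3.84e-05). Its groups did not overlap. Per kilobase Kif21b was above Kif2a in vehicle (8.55 ± 1.4 against 5.17 ± 0.16 CPM) and below it after LPS (3.67 ± 0.32 against 6.04 ± 0.51 CPM, SD, n = 4 each). In CPM, Kif21b was above Kif2a in every library. Kif2a, a depolymerase of the same family as Kif2c, had 34.3, 32.8, 31.9 and 33.3 CPM in vehicle and 41.3, 38.1, 40.9 and 34.2 CPM after LPS. It was not called (0.22 ± 0.09, adjusted p = 0.057 in edgeR), passed the threshold with RLE scaling (0.28) or without LPS replicate 4 (0.29) or both libraries of replicate 3 (0.26) and turned to -0.46 with library totals.

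Kif7 (chr7:79698098-79715720), a kinesin of the cilium tip that acts in Hedgehog signalling, had CPM of 6.43, 7.84, 6.53 and 7.62 in vehicle and 0.837, 1.58, 0.186 and 0.649 after LPS (-3.14 ± 0.45, adjusted p = 0.000204). Kif24, a kinesin-13 of centrioles, had 2.59, 4.73, 5.36 and 4.72 CPM in vehicle and 0.957, 0.435, 0.792 and 0.811 CPM after LPS (-2.53 ± 0.33, adjusted p = 0.000106), and like the mitotic kinesins it was lowest in replicate 1 of the vehicle libraries. Kif9, a kinesin of motile cilia, moved the other way, from 4.47, 3.94, 5.74 and 3.97 CPM in vehicle to 6.94, 10.9, 15.8 and 11.4 CPM after LPS (1.31 ± 0.25, adjusted p = 0.0012 in edgeR). Ependymal cells bear motile cilia. Of 10 ependymal markers, 6 had at most 3 counts in every library, among them Ccdc153, Hydin and the motor gene Dynlrb2. The list summed to at most 2.22 CPM, and its only tested marker, Cfap126, was not called (0.78, adjusted p = 0.28 in edgeR). Which cells the Kif9 RNA came from was not tested. The motile-cilia kinesins Kif6 and Kif27 and the relative Kif12 were below the filter.

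A few kinesins, several of them known from neurons, were lowest in the same replicate of both groups. Kif1a, which carries synaptic vesicles, had CPM of 17.7, 22.0, 5.04 and 20.8 in vehicle and 16.9, 9.90, 3.54 and 9.79 after LPS. Kif21a had 3.57, 2.42, 0.982 and 2.52 CPM in vehicle and 2.87, 0.762, 0.047 and 1.14 CPM after LPS, and Kif26a, which acts in signalling, had 1.78, 1.62, 0.539 and 1.56 CPM in vehicle and 1.85, 0.435, 0.047 and 0.487 CPM after LPS. With Kif26b, a relative of Kif26a, all 4 were lowest in replicate 3 of both groups, and so was Kif5a, the neuronal kinesin-1 heavy chain, which was called lower (-1.64 ± 0.51, adjusted p = 0.017 in edgeR) but not when vehicle replicate 2 or 4 was left out.

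The summed markers of oligodendrocyte precursors and of neurons were also lowest in replicate 3 of both groups. The 10 markers of oligodendrocyte precursors summed to 28.8 CPM in its vehicle library against 98.3 to 151 CPM in the other vehicle libraries. After LPS they summed to 65.2 CPM in replicate 3 against 68.95 to 145 CPM. Of these 65.2 CPM, 60.7 CPM were Vcan, which was itself higher after LPS. Tnr (1.17 CPM against 7.56 to 13.9 CPM) and Ptprz1 (1.40 CPM against 9.63 to 13.5 CPM) stood well apart in LPS replicate 3. Pdgfra was at 0.380 CPM in vehicle replicate 3 against 2.83 to 16.7 CPM. Not every marker followed. After LPS the precursor marker Vcan was at 60.7 CPM in replicate 3 against 37.1 to 104 CPM in the other libraries. The 10 neuronal markers summed to 14.8 CPM against 37.7 to 50.5 CPM in vehicle, and to 5.27 CPM against 11.5 to 22.9 CPM after LPS. The markers of other glia did not follow this order: those of oligodendrocytes were highest in replicate 3 among the vehicle libraries (205 CPM against 152 to 185 CPM), and those of astrocytes were lowest there (20.5 CPM against 38.1 to 47.6 CPM) but not after LPS (45.6 CPM against 41.4 to 124 CPM). Of the 8 precursor markers tested, 3 were lower and 1, Vcan (1.88 ± 0.44), was higher after LPS. Of the 7 neuronal markers tested, 5 were lower and 0 higher. The part of these other cell types in the values of these kinesins was not tested.

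Without the block, Kif1a (-0.72), Kif21a (-0.998), Kif26a (-0.99) and Kif26b (-0.71) were not called, with adjusted p-values of 0.23, 0.27, 0.26 and 0.47 in edgeR. With the replicate number as a block the first 3 were called lower, with adjusted p-values of 0.018, 0.034 and 0.047 in edgeR, while Kif26b was not (0.056). Kif26a was also called without LPS replicate 1 (-2.10). With both libraries of replicate 3 left out, Kif1a was called (-0.65, adjusted p = 0.035 in edgeR), and Kif21a (-0.76, 0.18) and Kif26a (-0.77, 0.23) were not. Kif19a, which limits cilium length, was not called either (-0.21) and was at 0.24 without replicate 3.

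**Figure D5:**
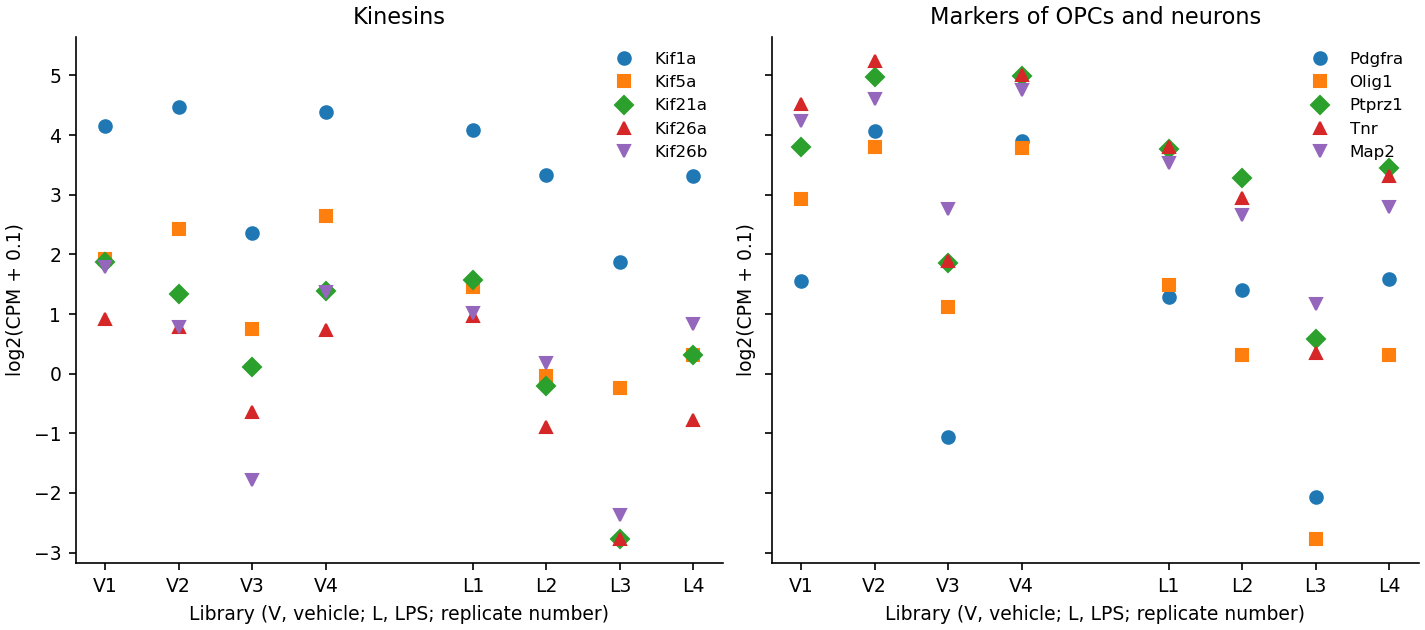
Level of 5 kinesins (left) and of 5 markers of oligodendrocyte precursors (OPCs) and neurons (right) in each library, as log2(CPM + 0.1) (y axis). Points stand for single libraries, vehicle (V1 to V4) and LPS (L1 to L4), and the genes shown were chosen after their values were seen. All 10 genes shown are lowest in replicate 3 of each group, with Pdgfra at 0.380 CPM in vehicle replicate 3. Not all markers on the lists follow this order, Vcan among the exceptions.

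Dynein and dynactin genes had a median log2 fold change of 0.34. Of 16 tested, 9 were higher (against 30.3% of all genes tested), 2 were lower (against 33.8%) and 5 were not called. Summed per kilobase, they were at 313 to 319 CPM in vehicle and 431 to 539 CPM after LPS. All 4 dynein-1 genes tested were higher. Dync1h1 (chr12:110601452-110666945), the heavy chain that holds the motor, had CPM of 516, 631, 524 and 528 in vehicle and 976, 1134, 1497 and 1263 after LPS (1.15 ± 0.16, adjusted p = 0.000157). Dync1i2 (chr2:71211706-71263303), the intermediate chain that binds dynactin, had 180, 200.1, 192 and 189 CPM in vehicle and 704, 625, 843 and 629 CPM after LPS (1.88 ± 0.13, adjusted p = 2.20e-06). Both were higher without overlap and kept that direction and call with library totals (0.46 and 1.19). Dync1i1, the intermediate chain known from neurons, had at most 3 counts in any library.

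Per kilobase, Dync1h1 was at 35.1 ± 3.5 CPM and Dync1i2 at 23.0 ± 0.99 CPM in vehicle, and at 77.8 ± 14.1 and 84.6 ± 12.3 CPM after LPS (SD, n = 4 each). On this scale the heavy chain was above the intermediate chain in vehicle, and both lay within their spread after LPS. The per-kilobase ratios of Dync1i2 to Dync1h1 were 0.600 to 0.694 in vehicle and 0.941 to 1.37 after LPS. In CPM, Dync1h1 was above Dync1i2 in every library. The light intermediate chains, which hold cargo adaptors, rose less. Dync1li1 (chr9:114688790-114724302) had 61.4, 58.4, 63.4 and 62.1 CPM in vehicle and 97.2, 110, 103 and 103 CPM after LPS (0.75 ± 0.08, adjusted p = 4.02e-05), and 0.08 with library totals, not called. Dync1li2 had 98.3, 99.98, 88.4 and 105 CPM in vehicle and 104, 118, 134 and 118 CPM after LPS. It overlapped between the groups, and its call (0.27, adjusted p = 0.047 in edgeR) was lost with the block (adjusted p = 0.083 in edgeR), with upper quartile scaling (0.11) and without LPS replicate 2, 3 or 4. Its sign turned with library totals (-0.42).

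Dynactin, the activator of dynein-1, rose in part. Of its 6 genes in the set, 3 were higher, 0 lower and 3 not called, with a median of 0.27. The 3 that rose were Dctn3, the p24 subunit of the shoulder, and Dctn4 and Dctn5, of the pointed end. Dctn5 (chr7:122133041-122149044) had CPM of 51.3, 56.3, 58.8 and 53.0 in vehicle and 72.6, 81.1, 113 and 75.2 after LPS (0.64 ± 0.15). Dctn4 had 89.2, 90.5, 93.3 and 92.4 CPM in vehicle and 102, 129, 164 and 119 CPM after LPS (0.49 ± 0.14), and Dctn3 had 29.2, 25.01, 28.3 and 25.5 CPM in vehicle and 32.2, 40.9, 32.5 and 38.1 CPM after LPS (0.41 ± 0.11). None overlapped between the groups, but all 3 turned sign with library totals (-0.05, -0.20 and -0.26), and Dctn3 lost its call with upper quartile scaling (0.26, adjusted p = 0.071 in edgeR).

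Dctn2, the p50 subunit dynamitin, had CPM of 114, 102, 114 and 106 in vehicle and 102, 113, 104 and 117 after LPS. Its log2 fold change was 0.00 ± 0.09 with TMM scaling, 0.06 with RLE scaling and -0.67 with library totals. Dctn1 (chr6:83165920-83200117), the p150Glued subunit that binds microtubules, had 115, 116, 119 and 119 CPM in vehicle and 129, 133, 66.8 and 133 CPM after LPS. Its difference (-0.02 ± 0.20) rested on LPS replicate 3, without which it was 0.17, and it was called higher with both libraries of replicate 3 left out (0.25, adjusted p = 0.016 in edgeR). With RLE scaling it was 0.034 and with library totals -0.68, called lower. The library-specific value of Dctn1 was not shared by Dctn3, Dctn4 or Dctn5 in that library. Dctn6 was at 21.0 to 22.0 CPM in vehicle and 20.9 to 27.8 CPM after LPS (0.12, not called, and negative with upper quartile scaling and library totals). Relative to Dctn2 per kilobase, Dync1i2 was at 0.920 to 1.14 in vehicle and 3.12 to 4.70 after LPS.

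Among the dynein light chains, RNA of the LC8 pair, Dynll1 and Dynll2, moved in opposite directions. Their products are dimeric hubs that also bind many proteins outside dynein. Dynll1 (chr5:115297110-115300999) had CPM of 23.2, 22.9, 21.9 and 22.2 in vehicle and 72.4, 54.4, 51.8 and 56.5 after LPS (1.38 ± 0.12, adjusted p = 7.90e-06). Dynll2 (chr11:87979525-87987533) had 95.2, 100.5, 107 and 108 CPM in vehicle and 57.8, 69.2, 71.1 and 76.2 CPM after LPS (-0.58 ± 0.11, adjusted p = 0.000953). Neither overlapped, and each kept its direction and call with library totals. The ratio of Dynll1 to Dynll2 per kilobase was 0.155 ± 0.013 in vehicle and 0.617 ± 0.177 after LPS (SD, n = 4 each). Per kilobase, Dynll2 was thus the higher in all 8 libraries. In CPM, Dynll1 was above Dynll2 in LPS replicate 1 (72.4 against 57.8 CPM).

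Dynlrb1, the roadblock light chain, had CPM of 40.4, 40.6, 39.4 and 43.1 in vehicle and 54.3, 56.1, 75.6 and 55.9 after LPS (0.56 ± 0.12, and -0.13 with library totals). Dynlt3, a Tctex light chain, had 101, 89.5, 98.8 and 93.6 CPM in vehicle and 80.9, 76.7, 122 and 78.6 CPM after LPS and was not called (-0.10). It was called lower without LPS replicate 3 (-0.28). The copies Dynlt1a, Dynlt1b, Dynlt1c and Dynlt1f had at most 8 counts in any library. Of the 50-base windows of their exons, 70.5% to 88.9% occur in another gene, mostly in each other, and only uniquely aligned reads were counted, so their low counts do not give their level.

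Dynein-2, the retrograde motor of cilia, was scarce. Dync2h1, its heavy chain, had CPM of 7.17, 8.26, 7.16 and 7.77 in vehicle and 6.40, 4.84, 10.1 and 4.38 after LPS and was not called (-0.24), though it was called lower without LPS replicate 3 (-0.54) or both libraries of replicate 3 (-0.49). Dync2li1, its light intermediate chain, fell from 3.46, 1.97, 2.57 and 2.66 CPM to 1.02, 1.20, 1.77 and 0.973 CPM (-1.09 ± 0.29, adjusted p = 0.0076 in edgeR). The dynein-2 intermediate chain genes, listed under the symbols Wdr60 and Wdr34, were at -0.45 (not called) and -1.26 (lower).

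Adaptors and regulators of the motors also went both ways. Of 44 motor partners, a list that also holds Kif1bp from the motor genes, 43 were tested. Among these, 16 were higher (against 30.3% of all genes tested) and 13 lower (against 33.8%), counts that alone say little. The median was -0.24 over the tested partners. The sign of 10 of them turned with library totals. Of the dynactin subunits with other symbols, Actr1a (0.78 ± 0.10), the actin-related protein of its filament, Actr10 (0.70 ± 0.11) of the pointed end and the capping protein subunit Capzb (0.95 ± 0.11) rose. Actr1b fell (-0.26, adjusted p = 0.042 in edgeR) and lost that call with the block (adjusted p = 0.051 in edgeR). With library totals Actr1a and Actr10 were at 0.10 and 0.01 and not called, while Capzb was at 0.28 and called.

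Ndel1 (1.51 ± 0.09), a dynein regulator, rose from 56.1 to 64.4 CPM to 167 to 175 CPM and was higher under every scaling, while its paralogue Nde1 fell (-0.84 ± 0.10). The dynein adaptors Ninl (-2.60 ± 0.14) and Hook3 (-1.02 ± 0.14) fell. Hook2 (0.89 ± 0.13) and the mitochondrial adaptor Trak1 (0.80 ± 0.09) rose, and with library totals they were at 0.23 and 0.13 and not called. Of the small GTPases that put kinesin-1 on lysosomes, Arl8b fell (-0.54 ± 0.13) and Arl8a rose (0.64 ± 0.10), the latter turning to -0.04 with library totals. Over the whole list, library totals gave 2 higher and 27 lower of the 43 tested. Kif1bp, the kinesin-binding protein, had 41.1, 43.0, 40.8 and 43.5 CPM in vehicle and 44.97, 52.5, 65.5 and 47.0 CPM after LPS (0.32, adjusted p = 0.046 in edgeR), which was lost with the block (adjusted p = 0.071 in edgeR) and turned to -0.37 with library totals.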

How the data were processed

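The submitters deposited raw counts per Ensembl gene, 1 column per library. According to the labels and the study's methods, the authors filtered the reads and aligned them with GSNAP to GRCm38 through HTSeqGenie and counted uniquely aligned single-end reads of 50 bases per gene. The gene annotation and the use of strand in counting are not given in the sources used here, and the labels and the methods name different library kits and sequencers (a stranded mRNA kit in the labels).

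Genes were matched to GENCODE vM21 by Ensembl identifier, which also gave coordinates and the exon length behind values per kilobase. This length merges the exons of all annotated transcripts of a gene, so genes can rank differently per kilobase than in CPM. Counts were tested in edgeR 4.0.16 (R 4.3.3) by the quasi-likelihood test, 2-sided, with TMM scaling and the filterByExpr filter (minimum count 10, minimum total 15), on all 8 libraries without a covariate. P-values were adjusted by Benjamini-Hochberg over all genes tested. The fits were tested on simulated data. Total counts per library limit the precision of genes with few counts. P-values measure the spread between the numbered biological replicates, for which the sources used here do not say whether each is a separate culture.

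Same-numbered vehicle and LPS libraries deviated from their group means together in replicates 1 to 3 (Pearson r of 0.37, 0.18 and 0.17 over 8154 genes, against -0.21 to 0.14 for libraries of unlike number). The r of 0.10 for replicate 4 lay within the range of unlike numbers. The main fit did not use these pairs, and a fit with the replicate number as a block was the paired alternative. The other alternatives were the DESeq2 1.42.0 Wald test, upper quartile and RLE scaling, no filter on low counts, stricter thresholds and each library left out. Scaling to library totals and leaving out both libraries of replicate 3 were added after seeing the data.

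All members were counted. Values in every library were given for the 3 tested members with the highest mean CPM and the 3 called members with the largest change in each role group, and for further genes that a result turned on. The members, role groups, partner lists and marker lists were chosen with earlier results of these data known, and 1 marker is not reported here. Shared sequence was the share of 50-base exon windows found in another gene's exons. Promoter windows came from RefSeq on GRCm38.p6. No protein sequences were used here. Results on Kif20a, Kif5b and Dctn4 are given without sequence.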

Additional observations from a re-analysis of the deposited data

Results flagged for a closer look

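In 112 groups of 4 libraries (56 genes in vehicle and in LPS), 7 had a library far from the other 3, by the gap to its nearest neighbour as a share of the group's whole range. Chance flags about 1 in 20 such groups. Of the 7, 4 concern LPS replicate 3. Dctn1 was at 66.8 CPM there against 129 to 133 CPM in the other LPS libraries (gap 0.940 of the range), and Klc2 was at 20.8 CPM against 26.6 to 27.7 CPM (0.836). Dynlrb1 was higher there, at 75.6 CPM against 54.3 to 56.1 CPM (0.915), and so was Dynlt3, at 122 CPM against 76.7 to 80.9 CPM (0.907). LPS replicate 3 also had the largest total count, 30604447, and the lowest TMM factor, 0.70. Kif5c in LPS replicate 1 was at 5.08 CPM against 2.80 to 3.16 CPM (0.843). Dync1h1 in vehicle replicate 2 was at 631 CPM against 516 to 528 CPM (0.897). Kif18a in vehicle replicate 1 was at 1.92 CPM against 4.53 to 4.57 CPM (0.984).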

How the results depend on the processing

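Over 952 values of the 56 genes under the alternatives, 860 kept direction and side of the threshold, 42 lost the call, 18 gained it and 32 turned sign. The 13 mitotic kinesins were lower under every alternative, with the call lost in some of them for Kifc5b. The cause of the changes below was not tested, apart from the smaller or differently scaled set of libraries that each setting names.

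Scaling to library totals, added after seeing the data, lowered every value. It gave 6 motor genes higher, 2 transport kinesins higher, 3 dynein and dynactin genes higher and 8 lower, and 2 motor partners higher and 27 lower. The medians were -4.52 for mitotic kinesins, -1.25 for transport kinesins, -1.63 for regulating or ciliary kinesins and -0.34 for dynein and dynactin genes, the last a turn of sign. The genes that turned were Dync1li2 (-0.42), Dctn3 (-0.26), Dctn4 (-0.20), Dctn5 (-0.052), Dctn6 (-0.57), Dynlrb1 (-0.13), Kif2a (-0.46), Kif1b (-0.57), Kif1c (-0.49), Klc1 (-0.48) and Kif1bp (-0.37).

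Upper quartile scaling gave a transport median of -0.73, turned Dctn6 (-0.041) and Kif1b (-0.047), took the call from Dync1li2, Dctn3 and Kif1bp, and left 7 dynein and dynactin genes higher. RLE scaling gave a transport median of -0.51, 2 regulating or ciliary kinesins higher, Dctn1 at 0.034 and Dctn2 at 0.056. DESeq2 gave a transport median of -0.52, 2 regulating or ciliary kinesins higher, Dctn1 at 0.030 and Dctn2 at 0.052. Requiring in addition a log2 fold change of at least 1 left 6 motor genes higher, 2 transport kinesins higher, 3 dynein and dynactin genes higher and 1 lower, and 1 motor partner higher and 7 lower.

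With the replicate block 5 regulating or ciliary kinesins were lower. Among the motor genes the block took the call from Dync1li2, Kif1bp and Kifc5b, gave it to Kif1a, Kif21a and Kif26a, and changed no other call. With both libraries of replicate 3 left out, also added after seeing the data, the mitotic median was -4.33, 2 regulating or ciliary kinesins and 1 spindle partner were higher, Dctn1 was at 0.25 and called, Dctn2 at 0.12 and Kif19a at 0.24. This setting also gave a call to Klc1, Kif1a, Kif2a and Dync2h1 and took it from Kifc5b.

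Leaving out 1 library at a time gave mitotic medians from -4.47 to -3.62, transport medians from -0.61 to -0.48 and regulating or ciliary medians from -1.27 to -0.58. It gave 1 to 2 regulating or ciliary kinesins higher, 2 to 4 dynein and dynactin genes lower and 0 to 1 spindle partners higher. Dctn1 ranged from -0.091 to 0.17, Dctn2 from -0.027 to 0.083 and Kif19a from -0.44 to 0.019. Depth limits genes with few counts, such as Kif18b, Kifc2 and Kifc5b, and the genes that were not tested.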
